A study of Homo sapiens with 48 samples.

Results

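RNA was compared between 3 libraries from cells that express the CLIP-tagged UPF1 mutant labelled LECY and 18 libraries from the other 6 CLIP-UPF1 lines of the study, all transfected with a non-targeting siRNA (siNT). These 21 libraries were chosen by their labels from 48 in all. The cells are Flp-In 293 T-REx, a human embryonic kidney line with a recombination site at which a transgene is inserted, so that each construct was stably expressed. The mutant lines are labelled LECY, F192E, FE-ER, I757R, IR-ER and E797R, the seventh line (WT) carries wild-type UPF1, and an eighth (CLIP) carries the tag without UPF1. Harvest was 72 h after transfection with 40 nM of siNT or of siUPF1, which targets UPF1, and each line and siRNA had 3 biological replicates. Every group is 1 stable line, so the effect of a mutant and any other property of its line cannot be told apart. With siNT the cells also kept their endogenous UPF1. The labels do not spell out LECY, FE-ER or IR-ER, and these names are used here without a meaning.

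UPF1 is an RNA helicase at the centre of nonsense-mediated decay (NMD), the pathway that degrades mRNAs whose translation ends at a premature or otherwise unusual stop codon. UPF1 is recruited to the terminating ribosome, is bound by UPF2 and UPF3B, is phosphorylated by SMG1, and then brings in factors such as SMG5 and SMG6, which start the destruction of the mRNA. A mutant protein made in excess over the normal one may occupy these partners without doing their work, which is called a dominant-negative effect. In that case the NMD targets would rise in a line that still has its own UPF1. The siNT libraries of LECY are where such a rise would be seen, because endogenous UPF1 was not depleted there.

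For the 3 mutants whose labels name a residue, the reference codon is given here so that the constructs can be placed on the gene. UPF1 lies on chromosome 19 at 18831938 to 18868236 of hg38, on the plus strand. In GENCODE 29, the coding sequence of transcript ENST00000262803.9, which has 1118 codons, held the labelled residue at all 3 positions. The second UPF1 isoform, ENST00000599848.5 with 1129 codons, held 1 of 3. The codon is in capitals within 33 bases of the spliced coding sequence, plus strand. The codon of F192E is in exon 4 (chr19:18850187-18850189), that of I757R in exon 16 (chr19:18860407-18860409) and that of E797R in exon 17 (chr19:18860914-18860916). No reference position can be given for LECY, and the sequences of the transgenes were not used here.
F192E: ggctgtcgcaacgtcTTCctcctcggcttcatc
I757R: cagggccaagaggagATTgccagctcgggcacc
E797R: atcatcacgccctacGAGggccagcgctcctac

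The LECY siNT libraries held 7125183 to 8713851 expected counts and those of the 6 lines 6264973 to 12614024. Library totals over all 48 ranged from 6016999 to 14551820. The median correlation of log2 levels was 0.9811 between LECY libraries and 0.9837 between a LECY library and one of another line. It was 0.9815 between libraries of the same other line and 0.9837 between different ones. Levels below are CPM, counts scaled to the size of the library, and differences are log2, LECY minus the comparison named. Genes are called changed where edgeR's quasi-likelihood test gave an adjusted p under 0.05, with p-values adjusted by Benjamini-Hochberg across 16697 tested genes.

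UPF1 RNA was 3492, 3050 and 4297 CPM in the LECY libraries, against 111, 97.2 and 109 CPM in the CLIP line, which has endogenous UPF1 alone. LECY was thus 5.10 higher than CLIP on the log2 scale (95% interval 4.83 to 5.37, adjusted p = 2.2e-28). Reads of the transgene and of endogenous UPF1 are summed in this value, and neither the endogenous share nor any protein was measured. The line means were 3613 ± 632 CPM in LECY, 4405 ± 640 in FE-ER, 4302 ± 730 in E797R, 4059 ± 379 in WT, 4011 ± 365 in I757R, 3935 ± 501 in IR-ER and 3683 ± 366 in F192E (SD, n = 3 each). LECY had the lowest mean of the 7, but its libraries lay among those of the others except for replicate 2, which was below all 18. Against the mean of the 6 lines UPF1 differed by −0.17 (95% interval −0.34 to 0.01, adjusted p = 1 by edgeR), and neighbours in this order did not differ beyond their spread. By line the differences ran from −0.03 against F192E to −0.29 against FE-ER, none of them called.

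**Figure D1:**
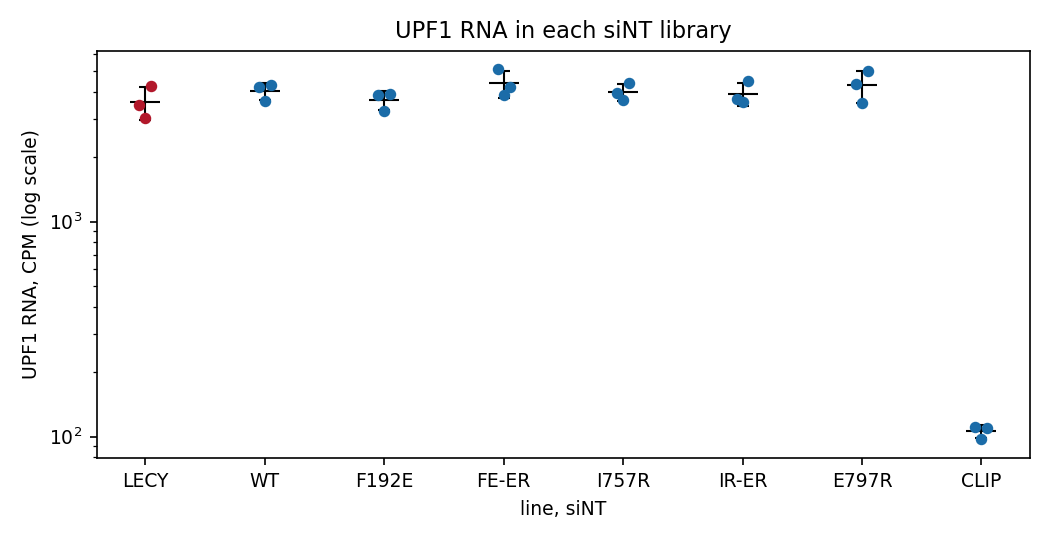
UPF1 RNA (CPM, log axis) in each siNT library of the 8 lines, LECY at the left, with the mean and SD of 3 replicates as bars. The 7 lines with a UPF1 transgene lie between 3050 and 5116 CPM, and the CLIP line between 97.2 and 111 CPM.

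Against the mean of the 6 lines, 1 gene was called in LECY, GALNT13, which was higher. That is 0.00599% of the 16697 genes tested. At an unadjusted p under 0.05 there were 298 genes (1.78%), a share below the 0.05 expected if no gene differed. This fit takes no account of the replicate number. The median log2 difference over all genes was 0.0045. With the replicate number as a block, 6 genes were called, 2 higher and 4 lower. DESeq2 called 2, GALNT13 and the histone gene HIST1H2AL. With the spread between the 6 lines in the residual, by fitting their 18 libraries as 1 group, edgeR called 0.

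Line by line, LECY differed from WT in 1 gene (0.00599%), GALNT13, which was higher. It differed from F192E in 2 genes (0.012%), GALNT13, higher, and the long noncoding RNA FP236383.1, lower. From FE-ER it differed in 2 (0.012%), the noncoding RNA LINC00632 and HIST1H2AL, both lower. From E797R it differed in 1 (0.00599%), UPF3B, which was higher. From I757R and IR-ER edgeR called 0 genes (0%), with 330 and 369 at an unadjusted p under 0.05. DESeq2 called 0 in both as well, with 266 and 304 at an unadjusted p under 0.05. With the replicate block, the count was 6 against WT, 3 against I757R and 11 against E797R. Without IR-ER replicate 2, 1 gene was called against IR-ER, the noncoding RNA AC099329.1. Without E797R replicate 3 the count against E797R was 2, and without LECY replicate 3 it was 3.

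The same contrast made for each other line shows how many genes set apart any line. WT against the remaining 6 CLIP-UPF1 lines gave 1 gene (0.00599%), F192E 1 (0.00599%), FE-ER 1 (0.00599%), I757R 0 (0%), IR-ER 2 (0.012%) and E797R 4 (0.024%). For I757R, edgeR had 323 genes at an unadjusted p under 0.05, and DESeq2 called 0. The 1 gene of LECY is within that range. With the replicate block LECY had 6 genes, and the other lines had 16 (E797R), 4 (WT), 4 (FE-ER, with CD99 listed at 2 positions), 2 (F192E), 2 (I757R) and 2 (IR-ER). Leaving out single libraries gave 1 to 5 genes for IR-ER and 2 to 5 for E797R, and 0 for WT without WT replicate 2. I757R had 1 without IR-ER replicate 1, and F192E had 2 without I757R replicate 2. FE-ER had 1 to 2. Counts of genes with no overlap say the same. All 3 LECY libraries lay above the 18 others in 11 genes (0.0659%) and below them in 8 (0.0479%). In the other lines these counts ran from 5 to 12 genes above and from 1 to 22 below.

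GALNT13 encodes a transferase that attaches the first sugar of mucin-type O-glycans to proteins. The gene is on chromosome 2 at 153871913 to 154453849 (hg38, plus strand). Its level was 11.5, 12.6 and 9.56 CPM in the LECY libraries, from 81, 109 and 84 counts, against 3.64 to 8.16 CPM (median 5.68) in the 18 others. The groups did not overlap. The log2 difference was 1.01 (SE 0.16, 95% interval 0.69 to 1.33, adjusted p = 0.0023 by edgeR).

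By line, GALNT13 was 1.45 higher on the log2 scale than in WT (adjusted p = 0.00414) and 1.32 higher than in F192E (adjusted p = 0.0134). Its difference was 0.97 against IR-ER, 0.85 against E797R, 0.82 against I757R and 0.65 against FE-ER, with adjusted p-values of 0.581 to 1, so none of these was called. With the replicate block the difference to E797R, 0.85, was called (adjusted p = 0.0321). FE-ER, at 7.15 ± 0.93 CPM (SD, n = 3), came next to LECY at 11.2 ± 1.52 CPM. In bulk libraries such as these, fewer cells with an RNA and less of it per cell cannot be told apart.

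The call of GALNT13 against the 6 lines rests on the LECY replicates 1 and 2. Without LECY replicate 1 the difference was 0.99 (adjusted p = 0.0996), and without LECY replicate 2 it was 0.92 (adjusted p = 0.41). Over all alternatives run, the adjusted p ranged from 1.25e-05 to 0.41 and the log2 difference from 0.92 to 1.11. Against WT the call was lost without WT replicate 1 (adjusted p = 0.0668), WT replicate 2 (0.171) or LECY replicate 2 (0.0891). Against F192E it was lost without F192E replicate 1 (0.278), F192E replicate 2 (0.123), LECY replicate 1 (0.116) or LECY replicate 2 (0.291). With siUPF1 the gene was again above all 18 others, at 10.63, 14.04 and 12.26 CPM in LECY against 2.57 to 8.38 CPM. The difference there was 1.09 (adjusted p = 1.19e-06), and its change with the siRNA was 0.08 (95% interval −0.39 to 0.55, adjusted p = 0.935).

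HIST1H2AL, a gene for the replication-dependent histone H2A on chromosome 6 at 27865355 to 27865747, went the other way. It had 1.70, 2.31 and 3.98 CPM in LECY, against 4.21 to 11.4 CPM (median 6.56) in the 18 others, and the groups did not overlap. The difference was −1.32 against the 6 lines (SE 0.27, adjusted p = 0.117), so it was not called there in the main fit. It was called with the replicate block (adjusted p = 0.0453), with DESeq2 (0.00741) and without an expression filter (2.18e-05). Leaving out E797R replicate 3 alone gave an adjusted p of 0.0452. HIST1H2AL fell by 1.73 on the log2 scale against FE-ER (adjusted p = 0.0229), a call lost without LECY replicate 1 (0.542), LECY replicate 2 (0.585), FE-ER replicate 2 (0.411) or FE-ER replicate 3 (0.107). With siUPF1 the 3 LECY libraries were again below the 18 others, and the difference of −1.17 was called (adjusted p = 0.00105). Histone genes exist in many near-identical copies, and RSEM divides reads between them by estimation, so this value is uncertain. It rests on 12, 20 and 35 counts in LECY.

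OAS3, an interferon-induced enzyme that makes the activator of RNase L, is on chromosome 12 at 112938352 to 112973249. It had 1.98, 0.576 and 2.28 CPM in LECY, against 2.06 to 4.84 CPM (median 3.92) in the 18 others. Of the LECY libraries, 2 lay below all 18 and replicate 3 lay just above the lowest. The difference was −1.25 (SE 0.28, adjusted p = 0.303). With siUPF1 the 3 LECY libraries were below the 18 others, and OAS3 fell by 1.14 on the log2 scale (adjusted p = 0.0084).

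**Figure D2:**
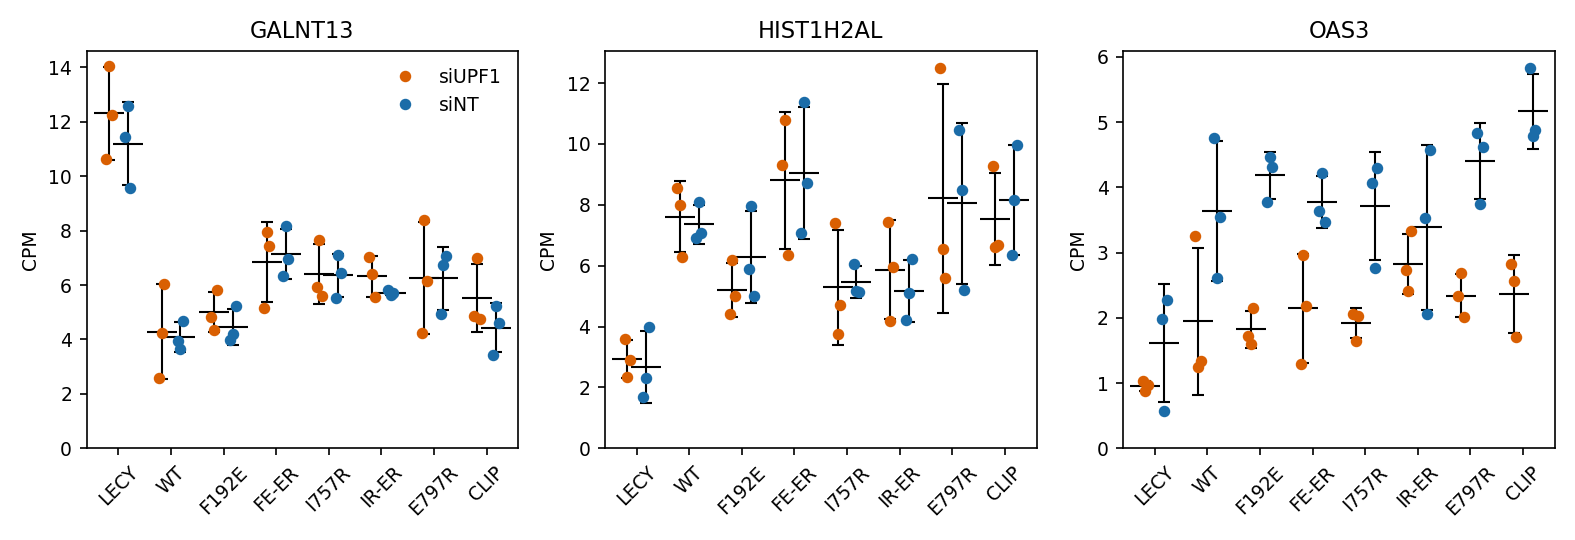
CPM of GALNT13, HIST1H2AL and OAS3 in each library of the 8 lines with siUPF1 and siNT, LECY at the left, with the mean and SD of 3 replicates as bars. LECY is above the 18 other CLIP-UPF1 libraries for GALNT13 and below them for HIST1H2AL with both siRNAs, while for OAS3 with siNT the highest LECY library (2.28 CPM) overlaps them.

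The replicate block adds HIST1H2AL, OAS3, KRT19, MAP7D2 and CTSZ to the genes called in LECY against the 6 lines. The edgeR fit with neither block nor expression filter also called HIST1H2AL (adjusted p = 2.18e-05), OAS3 (0.0306), KRT19 (7.64e-05) and MAP7D2 (0.000105). KRT19, a keratin of simple epithelia, had 40.9, 34.6 and 45.2 CPM in LECY, against 46.0 to 72.2 CPM in the 18 others, with no overlap. Its difference was −0.57 (adjusted p = 0.000539 with the block, 0.848 without). MAP7D2, which binds microtubules, had 14.3, 9.80 and 19.9 CPM in LECY, against 16.04 to 33.7 CPM in the others, with 2 LECY libraries below all 18 (−0.70, adjusted p = 0.0302 with the block, 1 without). CTSZ, the lysosomal protease cathepsin Z, had 14.1, 11.9 and 13.9 CPM in LECY, against 6.97 to 14.2 CPM in the others, so that the groups overlapped (0.51 with the block, adjusted p = 0.0453, 1 without). Within each replicate number, LECY minus the mean of the 6 lines was −0.72, −0.66 and −0.33 for KRT19, −0.80, −0.93 and −0.46 for MAP7D2, and 0.46, 0.53 and 0.53 for CTSZ. These 3 genes were chosen for the block result after their values were seen.

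For FP236383.1 and UPF3B, each called against a single line, the LECY mean was within those of the remaining lines. LINC00632, called against FE-ER, is described with them. FP236383.1, a long intergenic noncoding RNA on chromosome 21, had 1.41, 1.38 and 3.64 CPM in LECY, against 7.06, 8.09 and 10.0 CPM in F192E. The difference was −1.94 (adjusted p = 0.023). The LECY mean of 2.15 CPM lay within those of the other lines, which averaged 1.98 to 2.89 CPM apart from F192E. LECY replicates 1 and 2 were below all 18 libraries, the lowest of which had 1.44 CPM. The call was lost without F192E replicate 1 (adjusted p = 0.058), replicate 2 (0.123) or replicate 3 (0.313), and without LECY replicate 1 (0.647) or replicate 2 (0.961).

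LINC00632, annotated as an antisense RNA on chromosome X, had 3.54, 3.23 and 1.48 CPM in LECY, against 11.1, 11.8 and 9.76 CPM in FE-ER (−1.99, adjusted p = 5.09e-05). WT also had more of it than LECY, at 7.13 ± 0.66 CPM (SD, n = 3), and that difference was −1.39 (adjusted p = 0.0657). It was called with the replicate block (adjusted p = 0.0101), with DESeq2 (0.00589) and without an expression filter (0.00253). I757R, F192E, IR-ER and E797R averaged 2.24 to 3.68 CPM. The strand setting of the counting is not given, so reads of this RNA and of an overlapping partner cannot be told apart.

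UPF3B, the NMD factor that links UPF2 to the exon junction complex, had 103, 113 and 95.9 CPM in LECY, against 52.18, 66.7 and 59.98 CPM in E797R. It was 0.80 higher in LECY on the log2 scale (SE 0.11, adjusted p = 0.000212). Against the other 5 lines the difference ran from −0.01 to 0.20, none of them called. The low level was thus that of E797R, and LECY, at 104 ± 8.52 CPM, lay between CLIP and F192E (103 ± 8.61 and 105 ± 4.86 CPM, SD, n = 3 each).

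**Figure D3:**
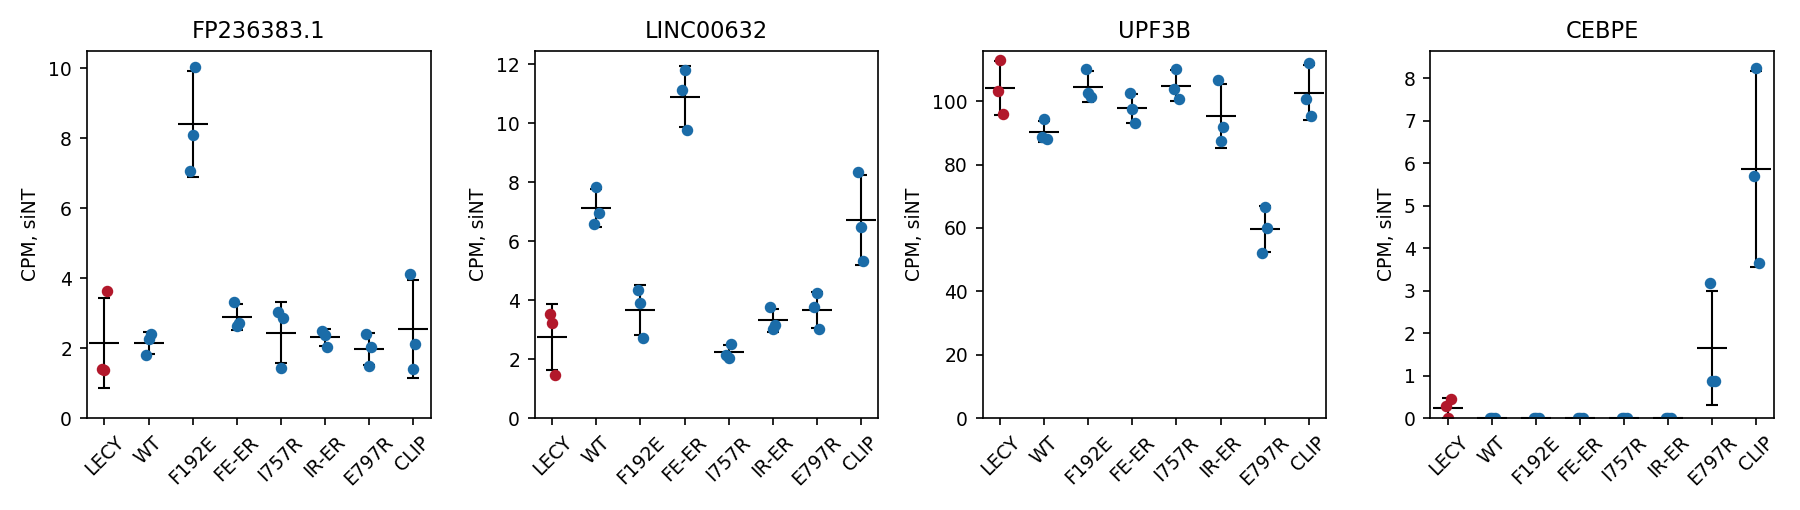
CPM of FP236383.1, LINC00632, UPF3B and CEBPE in each siNT library of the 8 lines, LECY at the left in red, with the mean and SD of 3 replicates as bars. The line that stands apart is F192E for FP236383.1 and E797R for UPF3B, LINC00632 is highest in FE-ER, and CEBPE is near 0 in LECY and highest in CLIP.

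Against the CLIP line, 5 genes were called in LECY (0.0299%). UPF1 and GALNT13 were higher (0.012% of all genes), and CEBPE, OAS3 and HIST1H2AL were lower (0.018%). CEBPE, a transcription factor of myeloid cells, had 0.283, 0 and 0.455 CPM in LECY and 5.7, 8.24 and 3.64 CPM in CLIP. It had no count in WT, F192E, FE-ER, I757R and IR-ER, and 3.19, 0.873 and 0.867 CPM in E797R, so its level in LECY was like that of most CLIP-UPF1 lines. GALNT13 was 1.32 higher in LECY than in CLIP on the log2 scale (adjusted p = 0.00602). OAS3 fell by 1.68 (adjusted p = 0.0315) and HIST1H2AL fell by 1.60 (adjusted p = 0.0315). Only UPF1 stayed called without LECY replicate 1, and only UPF1 without LECY replicate 2. There the adjusted p of the other 4 genes was 0.0523 to 0.674 and 0.128 to 0.847. Calls were also lost without CLIP replicate 1 (GALNT13, 0.123, and OAS3, 0.195), CLIP replicate 2 (CEBPE, 0.0752, OAS3, 0.0929, and HIST1H2AL, 0.141) and CLIP replicate 3 (OAS3, 0.0841, and HIST1H2AL, 0.516). Without LECY replicate 3 all 5 stayed called.

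The genes that respond to UPF1 loss were then followed as a group. A UPF1-repressed set of 1571 genes was taken from the CLIP line, as the genes called up by siUPF1 there with a rise of 1.5-fold or more (18.1% of all genes were called up). A WT-restored set of 723 of these was also called higher in CLIP than in WT with siUPF1, as 8.61% of all genes were. None of the libraries that chose these sets is among the 21 compared, but the WT-restored set was chosen with siUPF1 libraries of the WT line. In the CLIP knockdown the mean log2 CPM of the UPF1-repressed set rose by 0.962 ± 0.038 (SD, n = 3), and 33.7% of all genes were called in that comparison.

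With siNT the mean log2 CPM of the UPF1-repressed set was 4.074 ± 0.063 in LECY (SD, n = 3). The means of the 6 other lines ran from 4.038 in WT to 4.122 in I757R, and LECY ranked 5 of 7. LECY minus the 6 lines was −0.0063, which is −0.653% of the CLIP knockdown, and within the 3 replicate numbers it was −0.013, −0.011 and 0.0051. The difference is smaller than the spread of the LECY replicates. Of the 1571 genes, 0 were called by edgeR in either direction (0.00599% of all genes were), and at an unadjusted p under 0.05, 21 were higher and 19 lower. These counts use the fit without the replicate block. Over all genes tested, DESeq2 called GALNT13 and HIST1H2AL alone in LECY against the 6 lines. The median gene differed by 0.0067, against 0.0045 over all genes.

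Gene by gene, the 95% interval shows what size of rise these libraries leave possible. For 1560 of the 1571 genes (99.3%), its upper bound was below the gene's own rise in the CLIP knockdown. For 1312 (83.5%) it was below 50% of that rise. In the WT-restored set the counts were 721 (99.7%) and 646 (89.3%) of 723. The 1446 genes that fell by the same measure in the CLIP knockdown differed by −0.0045 on average in LECY, with 0 called. Across all 16697 genes, the LECY difference and the CLIP knockdown effect had a Pearson correlation of −0.0059 and a Spearman correlation of 0.012. This is a description over genes of 2 comparisons that share no library.

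Set against single lines, the WT-restored set lay in different directions. It was 4.456 ± 0.020 in LECY, against 4.408 ± 0.010 in WT (SD, n = 3 each), and the 3 LECY libraries were above the 3 of WT. The difference of 0.048 is 4.79% of the CLIP knockdown, and within replicate numbers it was 0.050, 0.036 and 0.059. Against I757R the difference was −0.039, with the 3 LECY libraries below those of I757R. It was −0.020 against IR-ER, 0.0014 against FE-ER, 0.024 against F192E and 0.028 against E797R. LECY ranked 3 of 7. WT was the lowest of the 7 lines, and the difference to WT, though small, is larger than the SD of either group. This set was chosen in part for levels lower in WT than in CLIP with siUPF1. A low level particular to the WT line would therefore be selected in, and the comparison with WT depends on the choice. An exact permutation test of 3 libraries against 3 cannot go below p = 0.1. In the UPF1-repressed set the difference to WT was 0.036, with SDs of 0.063 in LECY and 0.055 in WT. Within replicate numbers it was 0.015, 0.032 and 0.062, higher in LECY in 3 of 3. Against CLIP with siNT, which has no UPF1 transgene, the UPF1-repressed set was 0.078 higher in LECY (0.031, 0.056 and 0.148 by number). That is 8.15% of the CLIP knockdown. The WT-restored set was 0.033 higher (−0.011, 0.018 and 0.093 by number), and the set that fell differed by −0.049. WT, at 4.038, was also above CLIP, at 3.996, in the UPF1-repressed set. The CLIP siNT libraries helped choose these sets, so this comparison depends on the choice.

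**Figure D4:**
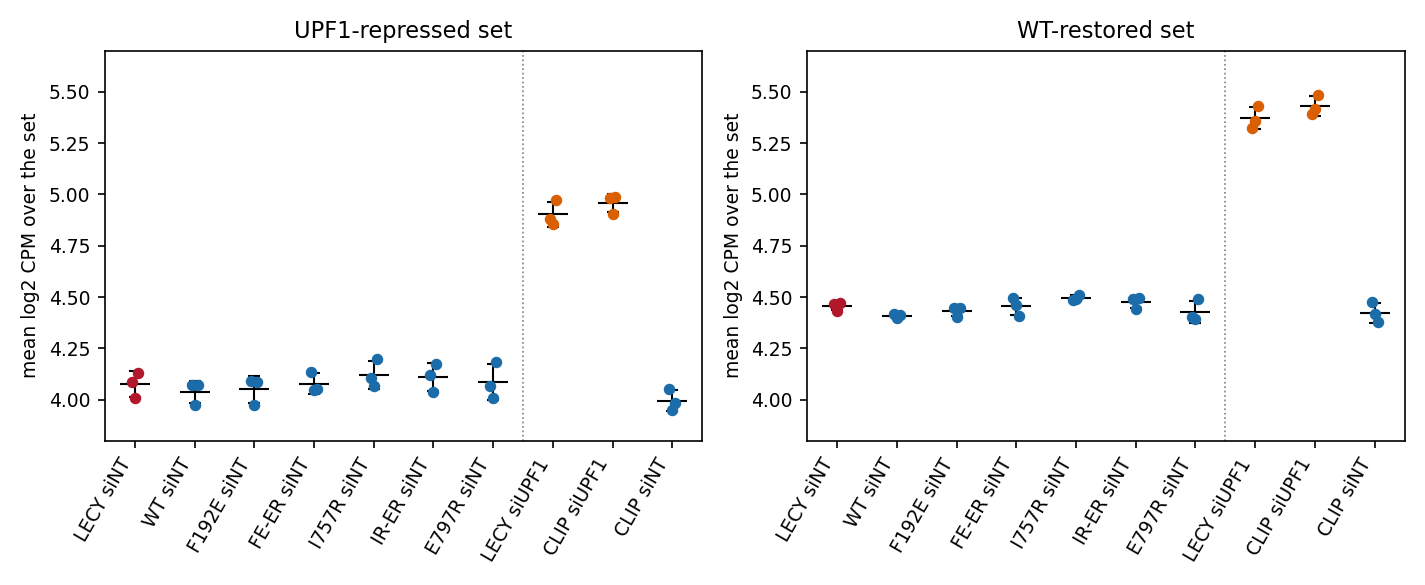
Mean log2 CPM of the UPF1-repressed and the WT-restored sets in each library, with the mean and SD of 3 replicates as bars. Left of the dotted line stand the siNT libraries of LECY and the 6 other lines, and right of it LECY and CLIP with siUPF1 and CLIP with siNT, of which the CLIP libraries chose the sets. LECY with siNT lies among the 6 lines and below the siUPF1 libraries of LECY and CLIP in both sets.

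Of 49 established NMD targets 48 could be tested, and edgeR called 0 of them in LECY against the 6 lines, against 0.00599% of all genes. At an unadjusted p under 0.05, 2 were higher (UPF3B and PIM3) and 1 lower (RASSF1). Neither DESeq2 nor edgeR with the replicate block called any of this list. PIM3, unlike UPF3B, went down with UPF1 loss, from 776, 1069 and 1143 counts in CLIP with siNT to 367, 425 and 321 with siUPF1. The median difference was −0.0058, with 24 above 0, and 44 of the 48 were within 0.25 of 0. In the CLIP knockdown 30 of the 48 rose and 7 fell, against 18.1% and 15.6% of all genes. For all 30 the upper bound in LECY was below the knockdown effect, and for 29 below 50% of it. These 30 were picked by their call in that knockdown, so their rises are selected in the same way. The median of these 30 was −0.071 in LECY, against 1.02 in the CLIP knockdown. By line, the median of the 48 ran from −0.038 against WT to 0.017 against E797R, and UPF3B against E797R was the only call. Without an expression filter, 5 targets were called lower in LECY than in I757R (ATF3, GADD45B, PPP1R15A, TSC22D3 and ZFAS1) and 3 lower than in IR-ER (ATF3, GADD45B and PPP1R15A), by 0.53 to 0.98 on the log2 scale. None of these was called with the filter, and no target was called higher in LECY than in those lines or than in WT.

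Among targets that act in the stress response and growth arrest, none was called against the 6 lines, and GADD45B and STC2 had lower means in LECY than in each of them. GADD45A, a protein of growth arrest and DNA damage, had 34.5, 29.5 and 48.8 CPM in LECY, with line means of 35.8 to 53.9 CPM in the 6 others (−0.17, SE 0.16, adjusted p = 1). ATF4, the transcription factor of the integrated stress response, had 727, 769 and 824 CPM, with line means of 712 to 818 CPM (0.01, SE 0.08). GADD45B had the lowest value of the list at −0.51 (95% interval −1.08 to 0.06), from 15.1, 15.9 and 8.08 CPM in LECY. Its mean was 13.04 ± 4.31 CPM in LECY, against line means of 14.5 CPM in E797R to 25.4 CPM in I757R (SD, n = 3). STC2, a secreted stress protein, differed by −0.11 (SE 0.25) from a mean of 106.17 CPM in LECY and line means of 106.92 to 122.6 CPM in the others, with an SD of 30.7 CPM between the LECY replicates and of 23.6 to 37.6 CPM within the 6 other lines.

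Targets that are hosts of small nucleolar RNAs make spliced transcripts with early stop codons. GAS5 had 59.97, 57.98 and 60.12 CPM in LECY, with line means of 57.4 to 67.0 CPM in the others (−0.06, SE 0.12). SNHG1 had 51.1, 46.9 and 53.4 CPM (0.03, SE 0.10) and SNHG15 had 33.2, 26.2 and 33.2 CPM (−0.08, SE 0.08). ZFAS1 differed by −0.16 and C6orf48 by −0.08. For all 5 the LECY mean lay within the range of the 6 other line means. With siUPF1 these 5 genes were higher in LECY than in the 6 lines, by 0.76 to 1.42 on the log2 scale. They do not stand for all hosts. Of 27 snoRNA hosts tested, 16 were called higher and 1 lower in LECY with siUPF1. The hosts SNHG12 and SNHG16 are not among the 5. With siUPF1 SNHG16 had 741, 684 and 1176 unscaled counts in LECY and 910, 813 and 1068 in WT. Each of these LECY libraries was larger than the WT library of its number.

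The 2 targets with the largest responses to UPF1 loss gave the same picture. TSC22D3, a glucocorticoid-induced regulator, had 106, 64.4 and 201 CPM in LECY and rose by 2.84 in the CLIP knockdown. Its difference in LECY was −0.17, with a wide interval of −1.004 to 0.668. RP9P, a transcribed pseudogene whose reads can mix with those of its parent gene, had 6.08, 6.34 and 6.49 CPM in LECY, the lowest mean of the 8 lines. Its difference was −0.22 (SE 0.15), against 2.41 in the CLIP knockdown. GABARAPL1, an autophagy protein, was at 0.14 in LECY and 1.61 in the knockdown. BAG1, a chaperone regulator, was at −0.06 and 1.78. TBL2, an endoplasmic reticulum protein, was at 0.04 and 0.70.

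**Figure D5:**
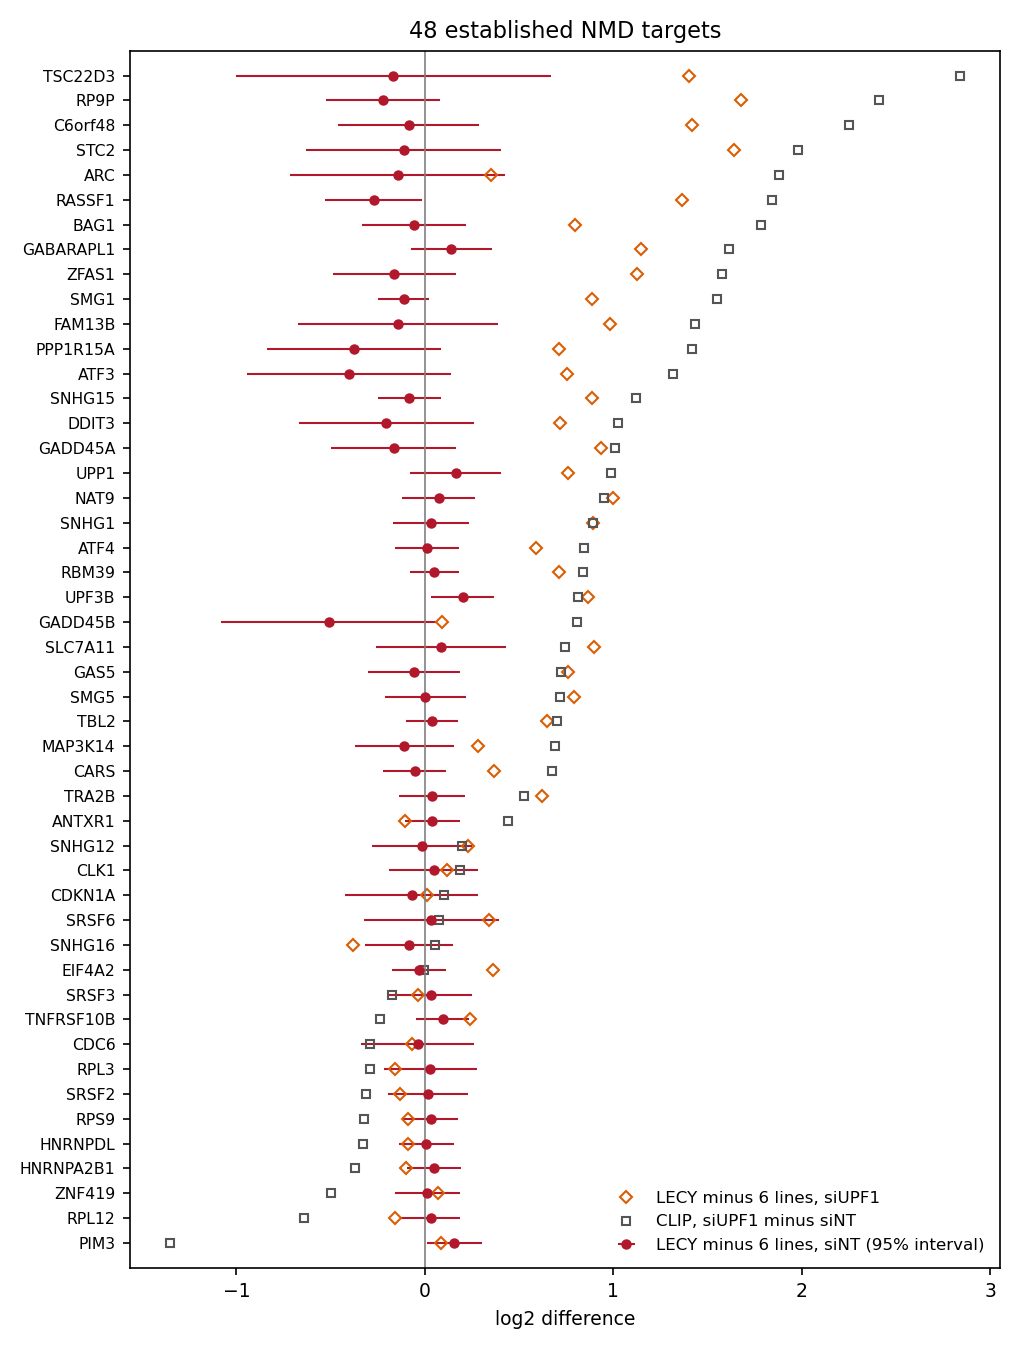
Log2 differences of the 48 NMD targets tested, ordered by their effect in the CLIP knockdown (squares). Filled circles with 95% intervals give LECY minus the 6 lines with siNT, and diamonds the same contrast with siUPF1. The circles lie near 0 down the whole list, 44 of them within 0.25 of it.

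The NMD factors form a feedback circuit, since several of their own mRNAs are degraded by NMD. Of the 20 factors, edgeR called 0 in LECY against the 6 lines, and 1 (UPF3B, 0.20) had an unadjusted p under 0.05. Neither DESeq2 nor edgeR with the replicate block called any of them. All 20 were within 0.25 of 0. SMG1, the kinase of UPF1, had 346, 362 and 308 CPM in LECY, with line means of 334 to 409 CPM in the others (−0.11, SE 0.07), and rose by 1.55 in the CLIP knockdown. The adaptor SMG5 differed by 0.00, and the endonuclease SMG6 by 0.02. The SMG1 regulators SMG8 and SMG9 differed by 0.02 and −0.05. UPF2 was at 0.08 and UPF3A at 0.09. In the CLIP knockdown 9 of the 20 rose and 2 fell, against 18.1% and 15.6% of all genes. For all 9, which were picked by their call there, the upper bound in LECY was below 50% of that rise.

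The remaining 16 lists were chosen for pathways that UPF1 loss or a foreign protein could touch. In LECY against the 6 lines edgeR without the replicate block called 0 genes in each of them, while 0.00599% of all genes were called. The interferon response and the histones are described after the other 14. Median differences were 0.05 for 13 exon junction complex genes, −0.03 for 27 snoRNA hosts, 0.03 for 42 splicing factors with poison exons, −0.06 for 40 ATF4 stress response genes and −0.05 for 21 unfolded protein response genes. They were −0.0036 for 24 p53 targets, 0.0071 for 25 cell division genes, −0.0019 for 25 DNA replication genes, −0.0031 for 20 selenoproteins, 0.0052 for 29 mRNA decay enzymes, 0.0021 for 78 cytosolic ribosomal proteins, 0.0045 for 23 cholesterol synthesis genes, 0.03 for 13 mitochondrial mRNAs and 0.03 for 16 heat shock genes. Some lists leaned to 1 side, while 52% of all genes were above 0. Above 0 were 15 of the 16 heat shock genes, 32 of the 42 splicing factors and 10 of the 13 exon junction complex genes. Only 5 of the 21 unfolded protein response genes, 14 of the 40 ATF4 genes and 9 of the 27 snoRNA hosts were. At an unadjusted p under 0.05 these 14 lists held 1 gene, EDEM1 of the unfolded protein response, at −0.28 (SE 0.09, adjusted p = 1). Neither DESeq2 nor edgeR with the replicate block called a member of the 14.

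Of all 16 lists the interferon response had the lowest median, −0.11 over 17 of 23 genes tested, with 3 above 0. OAS3 was its lowest member, and its only one at an unadjusted p under 0.05. It was called by edgeR with the replicate block (adjusted p = 0.0453). By line the median ran from −0.25 against E797R to −0.08 against WT. Among 42 replication-dependent histones the median was 0.07, with 31 above 0 and a range from −1.32 for HIST1H2AL to 1.65 for HIST1H2AJ. HIST1H2AE (−0.35) and HIST1H4K (−0.73) also had an unadjusted p under 0.05. HIST1H2AL was called by DESeq2 and by edgeR with the replicate block.

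Markers of embryonic kidney 293 cells summed to 831 to 972 CPM over 7 genes in LECY, against 756.98 to 1065 CPM in the 18 others, with VIM, KRT8 and SALL1 detected in each library. Fibroblast markers summed to 7.60 to 8.47 CPM in LECY and 5.71 to 10.9 CPM in the others. COL1A1, COL3A1 and PDGFRA were detected in each of the 21 libraries, while LUM was at 0 in 12 and DCN in 20 of them. Blood markers summed to 0.69 to 2.27 CPM in LECY and 0.568 to 4.05 CPM in the others. The 13 mitochondrial mRNAs summed to 19764 to 34624 CPM in LECY and 21430 to 35887 CPM in the others. The 4 neural markers summed to 233 to 362 CPM in LECY and 220.3 to 422 CPM in the others. Their median difference was −0.11 with none above 0, the lowest being NEFM at −0.67 (adjusted p = 1). Of the 3 fibroblast markers tested, with a median of −0.32, COL3A1 was at 0.65 with an unadjusted p under 0.05. The summed ranges overlapped, and whether these markers take part in any difference above was not tested.

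For scale, LECY was also set against the 6 lines with siUPF1, where the transgene stands in for depleted UPF1. There 1569 genes were higher (9.4%) and 862 lower (5.16%) in LECY, 14.6% of those tested in all. UPF1 RNA was 3208, 3066 and 3504 CPM in LECY with siUPF1, and its difference to the 6 lines was −0.37 (adjusted p = 0.00208). Of the UPF1-repressed set 687 of 1571 genes were higher in LECY and 12 lower, and of the 48 NMD targets 29 were higher and 1 lower. The change of the LECY difference with the siRNA was called in 755 genes (4.52%), 620 of them more positive with siUPF1 (3.71% of all genes). These included 386 of the UPF1-repressed set and 24 of the 48 NMD targets. This test uses the same siNT libraries as the results above.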

How the data were processed

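The deposited table holds RSEM expected counts for 58870 genes in 48 libraries of rRNA-depleted RNA, made by the authors with cutadapt, STAR, RSEM, DESeq2 and hg38, per the submitters' processing notes. Neither strand nor annotation release is given in the sources used here. Expected counts were rounded (9.16% were not whole). Gene positions came from GENCODE 29.

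All 48 libraries entered a model with 16 line-by-siRNA groups (edgeR 4.0.16, R 4.3.3, TMM factors, filterByExpr with a minimum count of 10, robust quasi-likelihood fit), and contrasts weighted the 6 lines equally. Tests were two-sided. Set levels are mean log2 CPM with a prior count of 2. The steps were tested on simulated data. DESeq2 1.42.0, other scaling, filters, subsets and a replicate block were alternatives.

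The members and lists were chosen with earlier results of these data known. Named genes were UPF1, the genes called in LECY against the 6 lines (up to 10 a direction), the 3 largest called rises and falls per line, any NMD target or factor, and called or most abundant members of other lists. Results for some of these genes are not reported here.

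Replicate numbers come from the labels. Same-numbered deviations of LECY and of the mean of the 6 lines correlated at 0.22, 0.555 and 0.653 over genes, all above 0.1, so the numbers were taken to pair these samples. Against WT, F192E, I757R, E797R and CLIP each pair was above 0.1 too. The main tests and their intervals do not use this pairing, and the replicate block was run as an alternative. The labels call replicates biological but name no separate cultures, so p-values measure the spread between these samples. With 3 against 3 an exact permutation test cannot go below p = 0.1.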

Additional observations from a re-analysis of the deposited data

Results flagged for a closer look

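The change of the LECY difference with the siRNA was examined in 31 of the named genes. In 18 of them the difference between LECY and the 6 lines itself differed between siUPF1 and siNT. Their adjusted p was 1.1e-09 to 0.00628 in the edgeR interaction test, which called 4.52% of all 16697 genes. In each of the 18 LECY was higher than the 6 lines with siUPF1, and with siNT the difference was not called. The change in the log2 difference, siUPF1 minus siNT, was 1.90 for RP9P, 1.75 for STC2, 1.63 for RASSF1, 1.5 for C6orf48, 1.29 for ZFAS1, 1.10 for GADD45A and 1.01 for GABARAPL1. It was 1.0 for SMG1, 0.97 for SNHG15, 0.86 for SNHG1, 0.85 for BAG1, 0.82 for GAS5, 0.79 for SMG5, 0.67 for UPF3B, 0.61 for TBL2, 0.60 for SMG6, 0.58 for ATF4 and 0.57 for SMG9. All 18 are NMD targets or NMD factors of the lists above, from which most of the 31 were taken. Groups of 3 libraries were not searched for a library far from the others.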

How the results depend on the processing

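Counts of called genes are small, so that 1 gene moves them by more than 1.5 times. Without an expression filter the counts rose to 35 in LECY against the 6 lines, 33 against WT, 29 against F192E, 18 against FE-ER, 35 against I757R, 35 against IR-ER, 22 against E797R and 26 against CLIP. The cause was not tested. The other lines had 32 to 57 there against their remaining 6. With the replicate block they were 6 against the 6 lines, 6 against WT, 4 against FE-ER, 3 against I757R, 3 against IR-ER (with GALNT13 at 0.96, adjusted p = 0.0166) and 11 against E797R. Of the 4 against FE-ER, 2 are CD99, which the table lists at 2 positions with equal values. Pairing by number was not supported for FE-ER and IR-ER, where the same-number correlations were 0.00214 and −0.00367 for replicate 1. The block lost no call of the fit without it. DESeq2 gave 2 against the 6 lines, 2 against WT and 3 against E797R. With the 24 siNT libraries alone 1 gene was called against F192E, 1 against FE-ER and 2 against CLIP. With the 18 libraries as 1 group 0 were called against the 6 lines, and GALNT13 had an adjusted p of 0.0639. Leaving out single libraries gave 0 to 2 genes against the 6 lines, 0 to 1 against WT, 0 to 2 against F192E, 1 to 2 against FE-ER, 0 against I757R, 0 to 1 against IR-ER, 1 to 3 against E797R and 1 to 5 against CLIP. The change of the GALNT13 difference with the siRNA, 0.08, ranged from −0.019 to 0.18 when single libraries were left out, and it turned negative without LECY replicate 3. The set differences moved by less than the SD of the LECY replicates (0.063 and 0.020) under all 26 alternatives each. They ran from −0.035 to 0.028 for the UPF1-repressed set and from −0.0093 to 0.019 for the WT-restored set. The SD of the difference within replicate numbers was smaller, 0.0099 and 0.0051, and these ranges go beyond it. The NMD target median ranged from −0.027 to 0.012. Low counts limit GALNT13, HIST1H2AL and OAS3, each under 110 counts in a LECY library.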
